A study of Homo sapiens with 8 samples.

Results

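The genes described here are 38 genes of glucose breakdown and of the response to low oxygen, followed through 8 arrays of the leukemia line ALL-SIL. All probe sets annotated to one of these symbols and to no other were taken, which gave 80 of the 54675 probe sets of the array for 36 of the 38 genes. CA9, a carbonic anhydrase that handles acid at the cell surface, and SLC16A3, a lactate exporter, had no probe set under their own symbol alone and have no value here. Each gene was represented by the probe set with the highest mean over the arrays. A gene was tested when that probe set lay above the array median on at least 2 of the 8 arrays. This held for 34 genes and left out PDK1, the kinase that shuts pyruvate dehydrogenase, and P4HA2, a collagen prolyl hydroxylase, whose highest-mean probe sets read 4.23 to 4.45 and 3.82 to 4.76.

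All 8 arrays were made from ALL-SIL, an established human line of T-cell acute lymphoblastic leukemia in which the homeobox gene TLX1 is active. In the first experiment, cells carried the TCRα/β-GFP lentiviral vector, which encodes a T-cell receptor built from the Jurkat sequence, and were either grown on OP9-DL1 for 48 h or kept without co-culture. OP9-DL1 is a mouse stromal line that displays the Notch ligand DL1, so the co-cultured group differed from its control in its contact with stroma and ligand as well as in the receptor activation named in the labels. In the second experiment, cells were transduced with a single hairpin vector against TLX1 or with the shRNA-pLKO.1-puro control and selected in puromycin. The labels do not say that the hairpin cells carried the receptor vector. Every group had 2 arrays, and the labels do not say whether these were separate cultures; a p-value here therefore reflects array-to-array spread that may be purely technical. All values are log2 probe set values.

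Glycolysis splits glucose into pyruvate in the cytosol, and its enzymes stand in a fixed order from the glucose transporters to lactate dehydrogenase. When oxygen is short, prolyl hydroxylases stop marking the HIF-alpha proteins for destruction, and HIF complexes raise the transcription of most of these enzymes, of VEGFA and ADM, and of the hydroxylase genes themselves. Activated T cells and T-cell leukemias are known for a high rate of glycolysis, which growth signals can raise with oxygen present.

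Array quality bears on what follows. Correlations over probe sets were 0.986 to 0.998 between arrays of a group and 0.942 to 0.951 between experiments, and the 2 control hairpin arrays correlated at 0.986, the lowest of the 4 groups. The 3′ minus 5′ signal of actin was 2.30 to 2.71 in the co-culture experiment and 0.57 to 0.83 in the hairpin experiment, so levels are compared within an experiment only. TLX1 itself read 8.66 and 8.27 with the control hairpin and 7.98 and 7.88 with the TLX1 hairpin, a change of -0.53 that did not pass the test (limma adjusted p = 0.334). All 14 T-lineage markers tested lay above the array median on 7 arrays and 13 of them on the second control hairpin array.

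With co-culture, BNIP3 fell 2.54-fold and PFKM rose 1.99-fold, and the other 32 genes tested did not pass the threshold in the model of all 8 arrays. BNIP3 is a mitochondrial outer membrane protein that marks mitochondria for autophagy and a classic HIF target, and PFKM is the muscle-type subunit of phosphofructokinase, the main control step of glycolysis. The 2 of 34 genes past an adjusted p of 0.05 compare with 0.618% of the 13102 genes tested, of which 0.366% rose and 0.252% fell. At an unadjusted p under 0.05, EGLN3 joined them, 3 of 34 against 7.42% of all genes. With the TLX1 hairpin, 0 of the 34 genes passed, against 0.0916% of all genes. The second control hairpin array carried higher values than the first for 31 of the 34 genes.

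**Figure D1:**
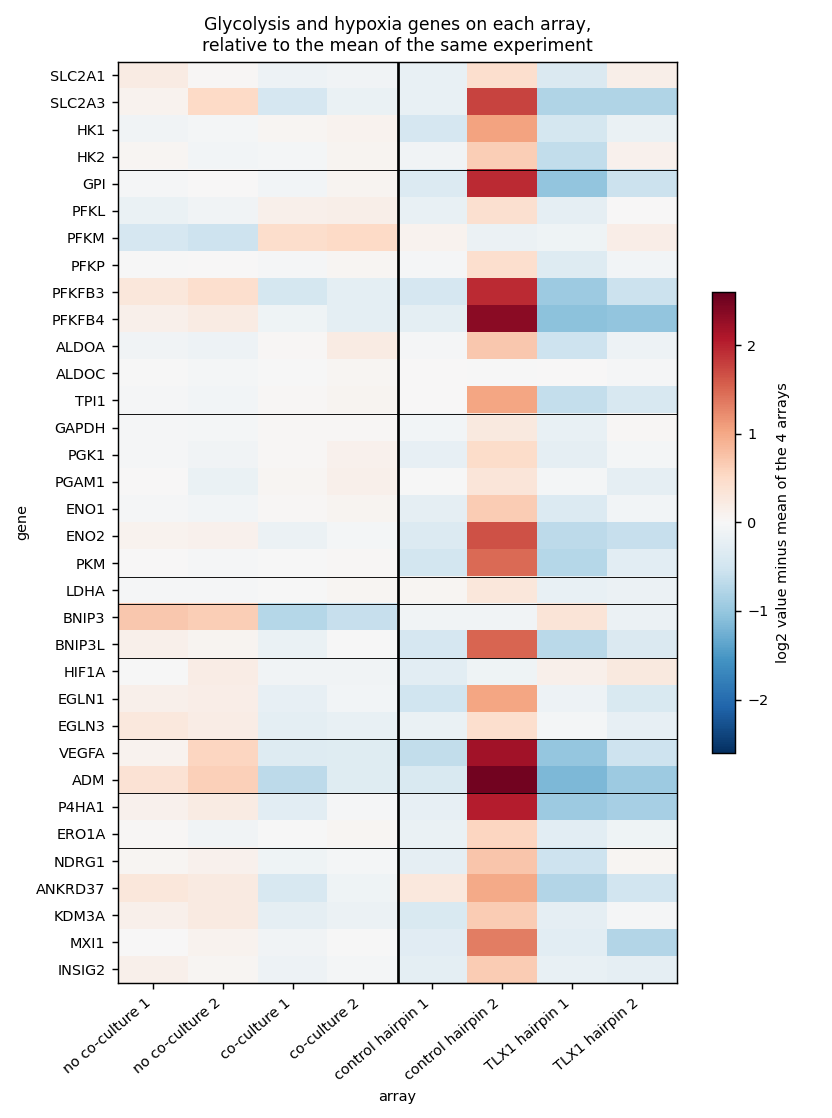
Each row is 1 of the 34 tested genes, in the order of their roles, and each column is 1 array; colour gives the log2 value minus the mean of the 4 arrays of the same experiment, and the thick line parts the experiments. The second control hairpin array is the highest of its 4 arrays for 30 genes, while BNIP3 and PFKM show the clearest contrast between the groups on the left.

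The promoters of 5 genes are shown, chosen after their values were seen: BNIP3, which fell with co-culture, ADM, which has the widest gap between the control hairpin arrays, and PFKFB4, ANKRD37 and P4HA1, the 3 tested genes with the smallest adjusted p for the TLX1 hairpin when the second control array is left out. Each run is the 250 bases before a RefSeq transcript start (GRCh38.p14), read 5′ to 3′ on the strand of the gene, with the HIF-binding cores ACGTG or GCGTG on either strand in capitals. CACGTG holds overlapping cores on both strands. The windows are chr10:131981924-131982173 for BNIP3 (minus strand), chr11:10304823-10305072 for ADM (plus), chr3:48556804-48557053 for PFKFB4 (minus), chr10:73096867-73097116 for P4HA1 (minus) and chr4:185396591-185396840 for ANKRD37 (plus).
BNIP3: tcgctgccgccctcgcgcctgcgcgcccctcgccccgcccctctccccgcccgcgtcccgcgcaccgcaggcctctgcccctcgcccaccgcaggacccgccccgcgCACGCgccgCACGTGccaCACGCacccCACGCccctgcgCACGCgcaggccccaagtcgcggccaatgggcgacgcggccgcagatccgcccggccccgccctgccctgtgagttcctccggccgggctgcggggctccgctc
ADM: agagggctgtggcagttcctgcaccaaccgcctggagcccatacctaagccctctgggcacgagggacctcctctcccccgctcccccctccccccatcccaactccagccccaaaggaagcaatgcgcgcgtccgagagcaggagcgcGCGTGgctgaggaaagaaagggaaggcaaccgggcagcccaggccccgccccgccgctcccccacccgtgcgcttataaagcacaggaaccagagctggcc
PFKFB4: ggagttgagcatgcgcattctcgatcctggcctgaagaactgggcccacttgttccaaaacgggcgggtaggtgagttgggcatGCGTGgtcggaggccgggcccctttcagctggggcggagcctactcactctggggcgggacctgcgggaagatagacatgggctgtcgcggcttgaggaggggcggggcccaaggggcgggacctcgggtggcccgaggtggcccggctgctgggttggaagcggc
P4HA1: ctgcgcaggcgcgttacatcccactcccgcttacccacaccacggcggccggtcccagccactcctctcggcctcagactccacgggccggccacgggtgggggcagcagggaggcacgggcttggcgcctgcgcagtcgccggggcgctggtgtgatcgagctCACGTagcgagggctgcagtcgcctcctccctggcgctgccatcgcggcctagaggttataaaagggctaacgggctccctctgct
ANKRD37: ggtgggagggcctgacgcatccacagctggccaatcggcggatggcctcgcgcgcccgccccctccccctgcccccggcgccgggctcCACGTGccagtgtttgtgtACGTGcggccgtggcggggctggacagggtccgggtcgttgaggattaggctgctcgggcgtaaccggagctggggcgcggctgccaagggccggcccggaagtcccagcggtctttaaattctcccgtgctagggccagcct
BNIP3 held 6 cores in this window, ANKRD37 3, and ADM, PFKFB4 and P4HA1 1 each. A core was found in 35 of the 56 windows of the tested genes (62.5%) and in 15172 of all 35116 windows of that length (43.2%). Some genes have several windows, and some of these overlap, so windows are not separate units. Many of the genes are listed because hypoxia induces them, so no weight rests on the higher share. A match is a description of letters and not of a bound site. SLC2A3, VEGFA, BNIP3L and NDRG1 were not in the promoter table.

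BNIP3 read 8.71 and 8.66 without co-culture and 7.27 and 7.42 with it. On the hairpin arrays it read 7.78 and 7.78 with the control and 8.20 and 7.71 with the TLX1 hairpin. Both co-cultured arrays lay well below their controls, and the hairpin groups overlapped. The log2 change with co-culture was -1.35 (95% interval -1.73 to -0.97, limma adjusted p = 0.0145). Its 2 probe sets differed by the same amount on every array, so they are not independent readings. In bulk samples, fewer cells of a type and less RNA per cell cannot be told apart.

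PFKM read 5.46 and 5.37 without co-culture and 6.37 and 6.44 with it. It read 5.64 and 5.41 with the control hairpin and 5.43 and 5.73 with the TLX1 hairpin. Both co-cultured arrays lay above their controls, which stood close to the array median of 5.29 to 5.30, and the hairpin groups overlapped. The log2 change was 0.99 (95% interval 0.66 to 1.31, limma adjusted p = 0.0295). BNIP3 and PFKM each lost the call when any 1 of the 4 arrays of this experiment was left out, with adjusted p up to 0.191 for BNIP3 and 0.335 for PFKM.

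Other transcripts moved in the same comparison. Of 11 granulocyte and myeloid markers tested of 16 listed, 8 rose, against 0.366% of all genes. RNASE2, PRTN3 and CSTA, 3 of the 8, passed the filter on dim probe sets only through the co-cultured arrays, so their rise was in part fixed by that filter. MPO, the myeloperoxidase gene, was lower, at 8.69 and 8.69 without co-culture and 7.82 and 8.13 with it (limma adjusted p = 0.156). The mean level of the 11, with RNASE2, PRTN3 and CSTA included, was 5.46 and 5.38 without co-culture and 7.25 and 7.28 with it. The rise of this mean was therefore also in part fixed by that filter. Of 16 chromosome Y genes tested, 6 fell, against 0.252% of all genes, and the median change of those 6 was -4.37. The 15 fibroblast and stromal markers had 0 calls by limma. At an unadjusted p under 0.05, 1 was lower, where 7.42% of all genes differed in either direction. The means of the 15 were 6.84 and 7.15 without co-culture and 7.13 and 6.78 with it. The part of these transcripts in the results on BNIP3 and PFKM was not tested.

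The remaining glucose transporters and hexokinases did not pass. SLC2A3, the high-affinity neuronal-type transporter GLUT3, read 8.84 and 9.26 without co-culture and 8.31 and 8.56 with it. Both co-cultured arrays were lower, but the change of -0.61 had an interval of -1.83 to 0.61. SLC2A1, the widespread transporter GLUT1, changed by -0.23, and HK1 and HK2, which trap glucose as its phosphate, by 0.14 and 0.02. The 2 further probe sets of HK2 differed by 0.42 and 0.53.

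Among the enzymes of upper glycolysis, the 2 bifunctional enzymes that set the level of fructose 2,6-bisphosphate, the activator of phosphofructokinase, were lower. PFKFB3 read 9.98 and 10.13 without co-culture and 9.23 and 9.43 with it, and PFKFB4 read 8.55 and 8.64 against 8.31 and 8.18. The groups did not overlap for either gene, yet neither passed in the model of all arrays (changes of -0.72 and -0.35, limma adjusted p = 0.948 and 1.00). The 6 other genes besides PFKM were GPI, which isomerizes glucose 6-phosphate, the phosphofructokinase subunits PFKL and PFKP, the aldolases ALDOA and ALDOC, and TPI1, which interconverts the triose phosphates. Their changes ran from 0.00 for PFKP to 0.28 for PFKL, and 0 of the 6 passed.

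The enzymes of lower glycolysis were close to level. GAPDH, PGK1, PGAM1, ENO1, ENO2 and PKM, which carry the triose phosphates on to pyruvate, changed by -0.20 to 0.18 with 0 of 6 past the threshold. PGK1 read 13.04 and 12.98 without co-culture and 13.11 and 13.18 with it, and PKM read 9.24 and 9.19 against 9.21 and 9.25. LDHA, which turns pyruvate into lactate, read 12.97 and 12.97 against 12.99 and 13.06.

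The hypoxia-related genes outside glycolysis, which include HIF1A, mostly read lower. Of these 14 genes, 13 were lower by sign with co-culture, with a median change of -0.30. Of the 20 transporters and glycolytic enzymes, 15 were higher by sign, with a median of 0.05. GPI, PFKP and PKM among the 15 changed by only 0.005 to 0.008. The kept probe sets of ENO1, GAPDH, PFKP, PGK1 and PKM disagreed in sign. With the mean of the probe sets of a gene, 13 of all 34 genes were higher by sign, against 16 with 1 probe set per gene. Over all genes tested, 45.0% were lower by sign and 55.0% higher, and the median change was 0.02. For 13 of the 14 genes both co-cultured arrays lay below both control arrays, as was so for 25.4% of all genes. For 11 of the 20 transporters and enzymes both co-cultured arrays lay above both controls, against 32.0% of all genes. Only BNIP3 of the 14 passed in the model of all 8 arrays.

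**Figure D2:**
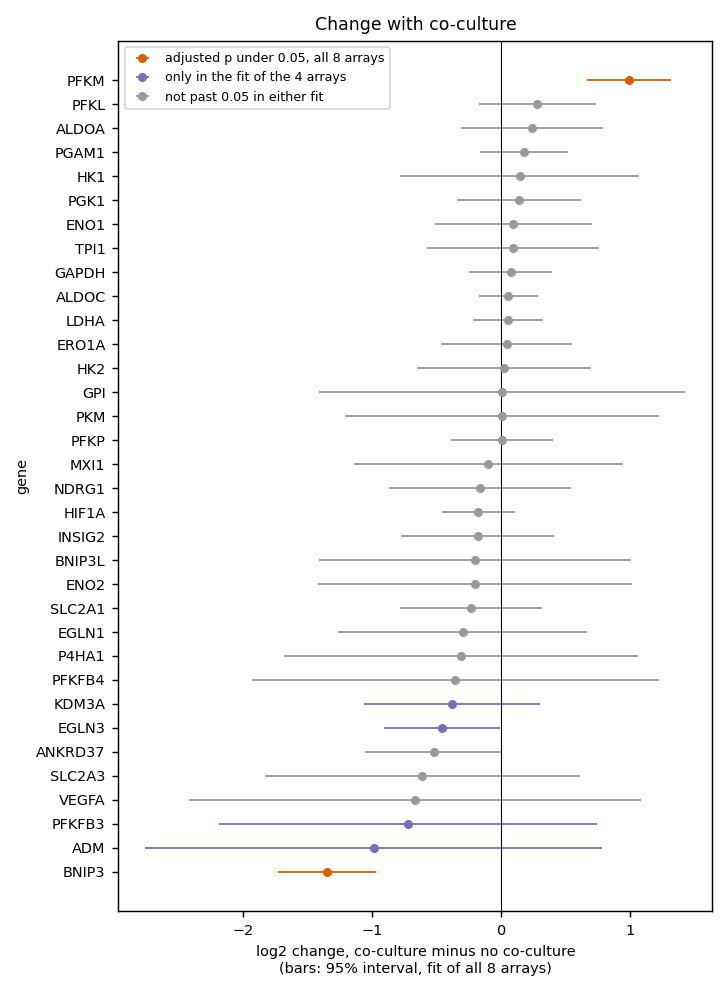
Points give the log2 change with co-culture of each tested gene and bars the 95% interval from the model of all 8 arrays. BNIP3 at -1.35 and PFKM at 0.99 pass the threshold, and ADM, PFKFB3, EGLN3 and KDM3A do not pass there but do in the model of the 4 arrays of this experiment.

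The hairpin arrays shared in the estimate of the spread. The median SD of the 34 genes was 0.05 in each group of the co-culture experiment and 0.64 in the control hairpin group. Fitted on the 4 arrays of the co-culture experiment alone, 6 of the 34 genes passed, against 6.61% of all genes. PFKM was higher, 1 of 34 against 3.56% of all genes. BNIP3, ADM, PFKFB3, EGLN3 and KDM3A were lower, 5 of 34 against 3.05% of all genes.

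ADM encodes adrenomedullin, a secreted vasodilator peptide. It read 9.01 and 9.26 without co-culture and 7.96 and 8.33 with it, so the groups were apart. The change was -0.99, with a limma adjusted p of 0.0304 in the model of the 4 arrays, 0.0352 in the 4-group model without either control hairpin array, and 0.928 in the model of all 8.

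VEGFA, the main growth factor of blood vessels, read 9.03 and 9.50 without co-culture and 8.58 and 8.61 with it. Both co-cultured arrays were lower, but the change of -0.67 did not pass in the model of the 4 arrays either (limma adjusted p = 0.0699). The other probe sets of VEGFA changed by -0.09, -0.54 and -0.45.

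The oxygen sensors EGLN3 and EGLN1 and the HIF subunit gene HIF1A also read lower. EGLN3, a prolyl hydroxylase of the HIF-alpha proteins that is itself induced by HIF, read 7.43 and 7.34 against 6.89 and 6.96, a change of -0.46 (limma adjusted p = 0.0276 in the model of the 4 arrays). EGLN1, the main hydroxylase under normal oxygen, read 9.09 and 9.12 against 8.73 and 8.88. HIF1A, the oxygen-regulated subunit, read 11.16 and 11.36 against 11.08 and 11.08, and neither of these last genes passed in either model.

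KDM3A, a histone demethylase induced by hypoxia, read 10.40 and 10.50 without co-culture and 10.03 and 10.10 with it (change -0.39, limma adjusted p = 0.0406 in the model of the 4 arrays). ANKRD37, a small ankyrin repeat protein and HIF target, read 8.16 and 8.11 against 7.46 and 7.76, with an adjusted p of 0.0573. The co-cultured arrays were lower for both genes without overlap.

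The other 6 hypoxia-induced genes differed by -0.31 to 0.04. BNIP3L, a mitophagy receptor related to BNIP3, changed by -0.20, P4HA1, the collagen prolyl hydroxylase subunit, by -0.31, and ERO1A, an oxidase of disulfide bond formation, by 0.04. NDRG1, a stress-induced gene, changed by -0.17, the MYC antagonist MXI1 by -0.10 and INSIG2, which restrains sterol synthesis, by -0.18. None of the 6 passed in either model.

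**Figure D3:**
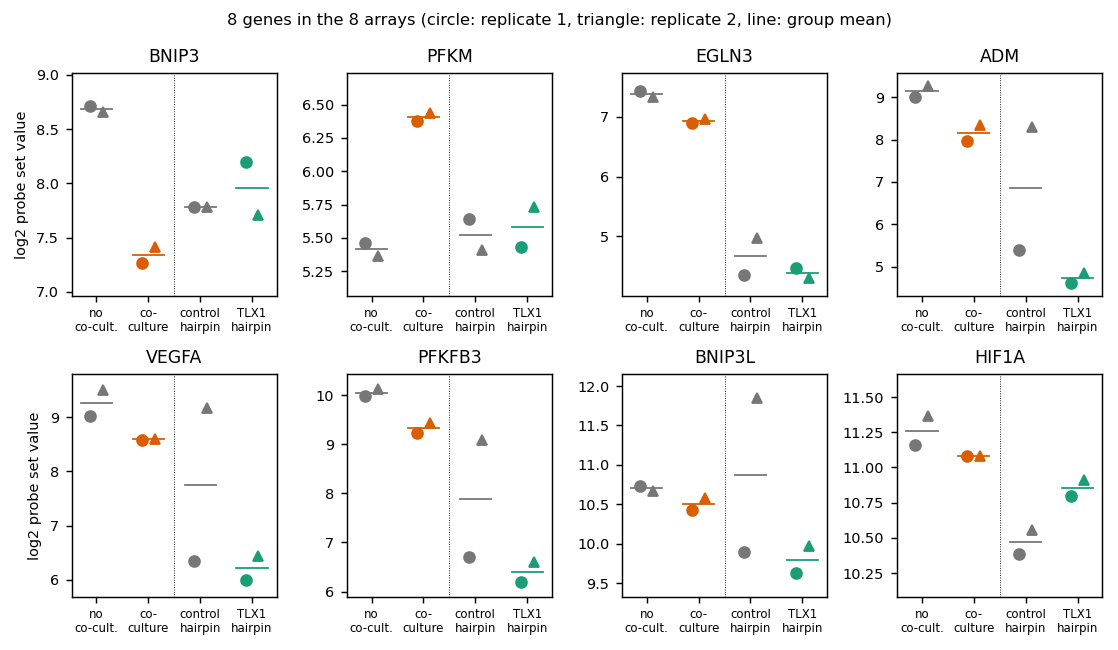
Each panel shows the log2 values of 1 gene on the 8 arrays (circle, replicate 1; triangle, replicate 2; line, group mean), with its own vertical scale. BNIP3, ADM and EGLN3 are lower and PFKM higher with co-culture, and the triangle of the control hairpin group stands far above its circle for ADM, VEGFA, PFKFB3 and BNIP3L but not for BNIP3, PFKM or HIF1A.

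In the hairpin experiment the dominant difference lay between the 2 control arrays. The median gap, second minus first control array, was 0.91 over the 34 genes and 0.05 over all genes. The gap exceeded 0.5 in size for 26 of 34 genes (76.5%) and for 20.2% of all genes. In the TLX1 hairpin pair this held for 3 of 34 genes (8.82%, against 6.83% of all genes), and in either pair of the co-culture experiment for 0 of 34. By direction alone, the second TLX1 hairpin array was also the higher for 27 of 34 genes, against 6758 of 13102 genes. The median gap there was 0.22, against 0.01 over all genes. In the co-cultured pair the second array was higher for 32 of 34 genes, with a median gap of 0.07, and without co-culture for 17. The second control array was the highest of the 4 hairpin arrays for 30 of 34 genes (88.2%) and for 35.5% of all genes.

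ADM showed the widest gap of these genes. It read 5.40 and 8.30 on the 2 control arrays and 4.62 and 4.86 with the TLX1 hairpin. The first control array lay near the TLX1 hairpin arrays and the second stood 7.46-fold above the first, the 3rd largest signed gap of 13102 genes. Ranks here and below are by the signed gap, second minus first, so genes far higher on the first array rank last. Both TLX1 hairpin values of ADM lay below the array median, so its change of -2.11 there is less certain in size. VEGFA read 6.34 and 9.17 with the control and 5.99 and 6.45 with the TLX1 hairpin. On this probe set the first control array lay between the TLX1 hairpin arrays, and the gap of 7.14-fold ranked 4th. The other probe sets of VEGFA had narrower gaps, with control readings of 6.65 and 7.81, 5.81 and 6.48, and 4.62 and 5.88.

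The regulators of phosphofructokinase followed the same pattern. PFKFB4 read 6.65 and 9.26 with the control and 5.84 and 5.88 with the TLX1 hairpin, and PFKFB3 read 6.70 and 9.08 against 6.20 and 6.60. For both genes the control arrays were the higher, and the second far above the first. Their gaps of 2.61 and 2.38 ranked 6th and 10th.

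The enzymes GPI and P4HA1 ranked 12th and 13th. GPI read 10.55 and 12.86 with the control and 9.89 and 10.34 with the TLX1 hairpin, and P4HA1 read 9.01 and 11.26 against 8.28 and 8.36. SLC2A3, BNIP3L and PKM each had a gap of 1.95, and that of ENO2 was slightly wider. By the signed gap, 13 of the 34 genes (38.2%) stood among the largest 100, a set that holds 0.763% of all genes. Among the largest 1000, 7.63% of all genes, stood 26 of the 34 (76.5%).

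The gap was not shared by all. BNIP3 read 7.78 on both control arrays, a gap of -0.00, while its relative BNIP3L read 9.90 and 11.85. ALDOC had a gap of -0.01 and PFKM of -0.23. HIF1A and LDHA had gaps of 0.17 and 0.25. The SD of the control group was 2.05 for ADM and 0.00 for BNIP3 (n = 2).

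Of the quality measures, the 3′ minus 5′ signal of actin was 0.57 on the first control array and 0.81 on the second, against 0.66 and 0.83 with the TLX1 hairpin. That of GAPDH was 0.02 and -0.01, the lowest of the hairpin arrays, against 0.04 and 0.08. The mean of the T-lineage markers was 9.28 and 8.99, against 9.04 and 8.96 with the TLX1 hairpin. The mean of the granulocyte and myeloid markers was 4.96 and 5.11 and that of the stromal markers 5.70 and 5.84. The part of these values in the gap was not tested.

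**Figure D4:**
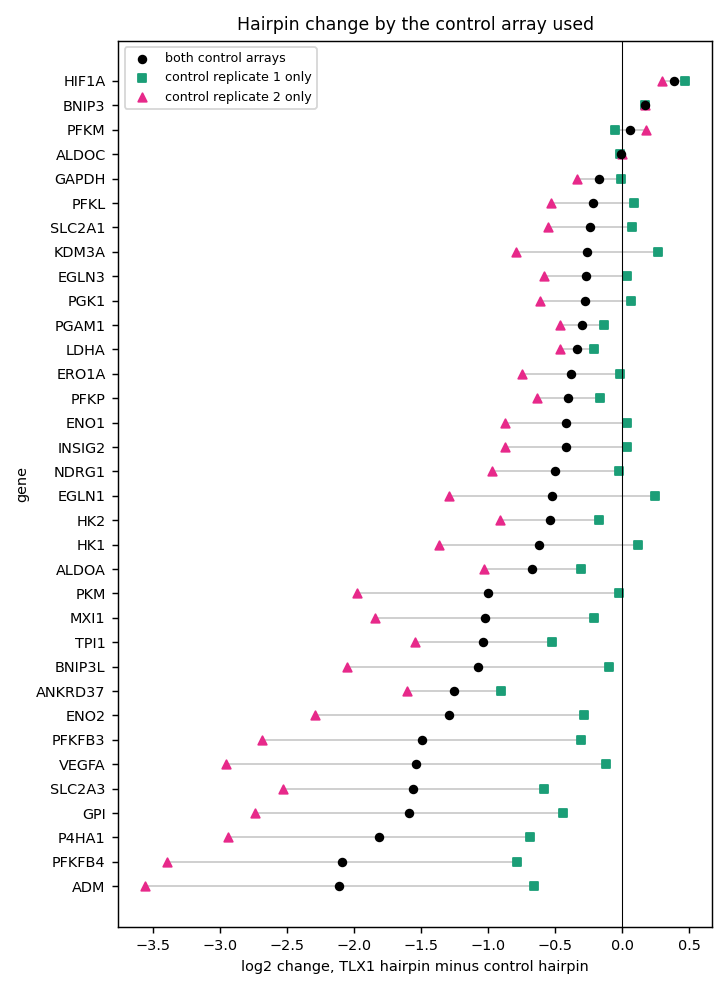
For each tested gene, the log2 change with the TLX1 hairpin is shown against the mean of both control arrays (black), against the first alone (square) and against the second alone (triangle). Against both, ADM and PFKFB4 lie lowest at -2.11 and -2.09, and most squares lie near 0.

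The TLX1 hairpin comparison rests on this pair. By sign, 31 of 34 genes were lower with the TLX1 hairpin, against 50.4% of all genes, and the median change was -0.51, against -0.00. At an unadjusted p under 0.05, 12 genes were lower and 1 was higher, against 4.77% and 4.21% of all genes, and after adjustment limma called 0. The groups did not overlap for 13 genes with lower values, against 14.6% of all genes, and for HIF1A with higher values, against 14.1%. The model of the 4 hairpin arrays alone also called 0 of 34, and 0 of all genes.

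Without the first control array, the median change was -0.94, against -0.02 over all genes, and by sign 31 genes were lower and 3 higher. Without the second, the median change was -0.08, against 0.02 over all genes. By sign, 23 genes were then lower and 11 higher. With 1 control array left, its spread is assumed to be that of the other groups.

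Some genes stayed lower against the first control array as well, without passing. PFKFB4 differed from it by -0.79 (limma adjusted p = 0.0543) and P4HA1 by -0.69 (0.105). ANKRD37 read 7.31 and 8.01 with the control and 6.28 and 6.54 with the TLX1 hairpin. Its groups were well apart, and its change of -1.25 had the smallest adjusted p of the 34 genes with all arrays (0.148), and -0.91 against the first control array alone (0.0989). TPI1 read 11.27 and 12.29 against 10.63 and 10.85, a change of -1.04 with all arrays (0.334) and -0.52 without the second control array (0.135).

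By the probe set representing each gene, HIF1A was the only tested gene with both TLX1 hairpin arrays above both control arrays. A dimmer probe set of HK2 did so too, at 4.53 and 4.34 with the control and 4.65 and 4.65 with the TLX1 hairpin. HIF1A read 10.38 and 10.55 with the control and 10.80 and 10.91 with the TLX1 hairpin. The change was 0.39 with all arrays (limma adjusted p = 0.389) and 0.47 without the second control array (0.173), so it did not pass.

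Against the first control array alone, by the probe set representing each gene, PGK1 differed by 0.07, ENO1 by 0.03, GAPDH by -0.01 and PKM by -0.02. The other enzymes of lower glycolysis, PGAM1 and ENO2, differed by -0.14 and -0.29. GPI differed by -0.44, ALDOA by -0.31 and LDHA by -0.21, and none of these 9 passed. Among the oxygen sensors EGLN1 differed by 0.25 and EGLN3 by 0.04. EGLN3 read 4.31 to 4.98 on the hairpin arrays, all below the array median, so small differences there carry little weight.

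The 2 changes were also set against each other. The difference between the change with co-culture and the change with the TLX1 hairpin passed for 0 of 34 genes, against 0.382% of all genes, and at an unadjusted p under 0.05 for 7, against 8.74%. BNIP3 was closest, with a difference of -1.52 (limma adjusted p = 0.0532), and the difference of PFKM was 0.93 (0.168). For ADM the changes were -0.99 and -2.11, and the difference of 1.12 did not pass (0.863).

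**Figure D5:**
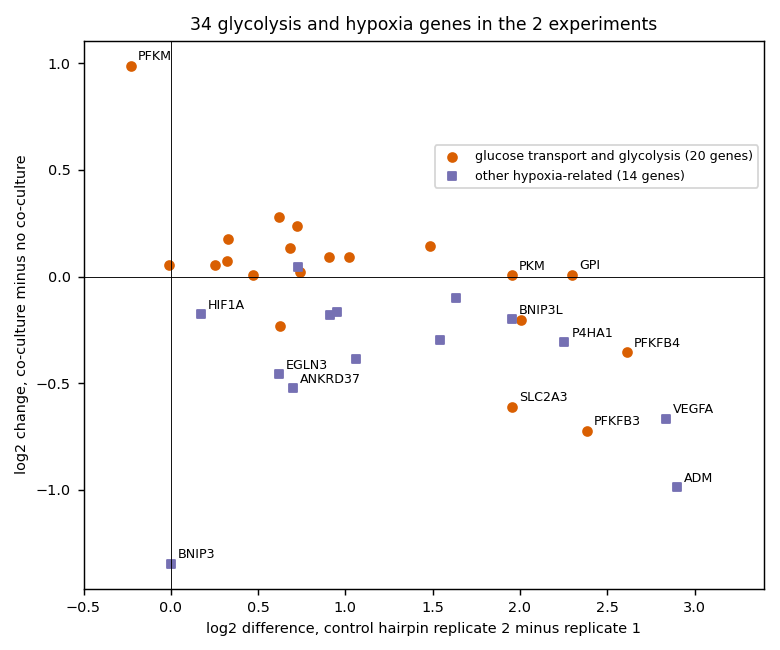
Each point is 1 of the 34 tested genes, by the log2 difference between the 2 control hairpin arrays (horizontal) and the log2 change with co-culture (vertical); circles are transporters and glycolytic enzymes, squares the other hypoxia-related genes. ADM and VEGFA lie at the lower right, and BNIP3 and PFKM lie at the left with gaps of -0.00 and -0.23.

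Genes with a wide gap between the control hairpin arrays tended to be lower with co-culture, although the 2 quantities share no arrays. Across the 34 genes, Pearson's r was -0.43 and Spearman's rho -0.47. Across the 32 without BNIP3 and PFKM they were -0.61 and -0.54. These 2 genes were left out after their co-culture values, 1 of the 2 axes, were seen, so no weight rests on the stronger correlations. Across all genes they were -0.11 and -0.17. These are correlations across genes, which are not independent replicates, and the genes of each axis share 4 or 2 arrays.

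Of the genes around this pathway, 1 passed. TXNIP, an inhibitor of glucose uptake that is itself induced by glucose, read 7.92 and 7.83 without co-culture and 9.12 and 9.02 with it. Both co-cultured arrays were far higher, and the change of 1.19 passed (limma adjusted p = 0.00305). It read 8.72 and 8.61 with the control hairpin and 8.44 and 8.56 with the TLX1 hairpin, and its 2 changes differed by 1.36 (adjusted p = 0.0161). The rise with co-culture lost the call without the second array of the control (adjusted p = 0.0675) or the first co-cultured array (0.0747). ARRDC4, a relative of TXNIP, differed by -0.56 and did not pass (0.900).

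Among 16 other glycolysis genes tested, limma called 0 in either comparison. At an unadjusted p under 0.05, 1 was higher with co-culture, where 7.42% of all genes differed in either direction. With the TLX1 hairpin 3 were higher, against 4.21% of all genes. HKDC1, a hexokinase-domain protein, read 7.10 and 7.07 without co-culture and 7.65 and 7.84 with it (change 0.66, limma adjusted p = 0.0677). The groups were apart, and it passed in the model of the 4 arrays (0.0208). With the TLX1 hairpin it differed by 0.51 (adjusted p = 0.237), on 4 arrays that all lay below the array median. LDHB, the heart-type lactate dehydrogenase, differed by 0.18 with co-culture, and PGM2, a phosphopentomutase, by 0.45 with the TLX1 hairpin.

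Pyruvate entry into mitochondria had 0 of 11 genes past limma's threshold and 1 lower at an unadjusted p under 0.05 in each comparison. Of all genes, 7.42% differed at that level in either direction with co-culture, and 4.77% were lower with the TLX1 hairpin. PDP1, the phosphatase that reactivates pyruvate dehydrogenase, differed by -0.33 with co-culture and PDHA1, a subunit of that enzyme, by 0.26. With the TLX1 hairpin, the pyruvate carrier subunit MPC2 differed by -0.35 and PDHB by -0.15. The pentose phosphate pathway had 0 of 7 past the threshold. At an unadjusted p under 0.05, 1 was lower with co-culture, where 7.42% of all genes differed. H6PD differed by -0.54 and PGD by 0.23 with co-culture, and TKT by -0.20 with the TLX1 hairpin.

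HIF subunits and regulators had 0 of 12 by limma. At an unadjusted p under 0.05, 1 was higher with co-culture, where 7.42% of all genes differed in either direction. With the TLX1 hairpin 1 was higher and 1 lower, against 4.21% and 4.77% of all genes. HIF1AN, the asparagine hydroxylase that blocks HIF activity, differed by 0.34 with co-culture and by -0.34 with the TLX1 hairpin, and the difference of 0.68 did not pass (limma adjusted p = 0.269). EPAS1, which encodes HIF-2 alpha, read 7.58 and 7.85 with the control hairpin and 8.61 and 8.50 with the TLX1 hairpin. Both TLX1 hairpin arrays were higher, as for HIF1A, but the change of 0.84 did not pass (limma adjusted p = 0.123).

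Among 31 other hypoxia-induced genes tested, limma called 0 in either comparison. At an unadjusted p under 0.05, 4 differed with co-culture, 3 lower and 1 higher, against 7.42% of all genes, and 9 were lower with the TLX1 hairpin, against 4.77%. With co-culture 21 were lower by sign, against 45.0% of all genes, with a median change of -0.08, including the chemokine receptor CXCR4 at -0.46 and the demethylase KDM4C at -0.46. With the TLX1 hairpin 26 were lower by sign, against 50.4%, and the median was -0.33, with HILPDA, a lipid droplet protein, at -1.32 and FAM162A at -1.15. Without the first control array the median of the 31 was -0.74, against -0.02 over all genes. Without the second it was -0.06, against 0.02.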

How the data were processed

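Values came from the series table, in which the authors deposited log2 probe set values of all 8 arrays, made by RMA (affy package, R 2.9.0) according to the submitters' processing notes. The sources used here do not name the RMA settings. Each array spans 2.15 to 14.3, as quantile normalization leaves it, which hides any shift of a whole array, and the number of arrays limits the precision. Genes were named from the platform annotation, through probe sets with 1 symbol. Probe sets above the array median on at least 2 of 8 arrays were kept, with the highest-mean probe set per gene, which gave 13102 genes. The test was limma 3.58.1 in R 4.3.3: 1 model of 4 group means (4 residual and 3.62 prior degrees of freedom), eBayes and Benjamini-Hochberg adjustment over all genes at 0.05. The model was tested on simulated data. Alternatives were the fit of 2 groups, a replicate block, filters, probe set rules, weights, cyclic loess and leaving out each array. All listed genes were named, and of the other lists those past the threshold and up to 2 per comparison with the smallest p. The members and lists were chosen with earlier results of these data known. Replicate numbers served as names and did not pair arrays.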

Additional observations from a re-analysis of the deposited data

How the results depend on the processing

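For the co-culture comparison, 2 of 34 genes were called with all arrays, against 0.618% of all genes. With only the 2 groups compared 6 were called, against 6.61%, and with array weights 5, against 10.3%. The stricter filter on dim probe sets called 1 (BNIP3), against 0.2%. The replicate block called 1 (BNIP3, with PFKM at a limma adjusted p of 0.0927), against 0.557%. The deviations of same-numbered arrays correlated weakly in the co-culture experiment (r = -0.14, and 0.35 in the hairpin experiment). The crossed replicate block, chosen after seeing the data, called 1 gene, against 0.542% of all genes. Leaving out 1 array at a time gave 0 to 3 calls and a median change of -0.16 to -0.069. Without any filter on dim probe sets the median was -0.049. For the TLX1 hairpin, leaving out 1 array at a time gave 0 to 26 calls, the 26 without the first control array, and a median change of -0.94 to -0.08. For the difference between the changes, 1 gene (BNIP3) was called with no dim filter, 1 with the mean of the probe sets of a gene and 1 with cyclic loess, and leaving out 1 array gave 0 to 23 calls, the 23 without the first control hairpin array. Without the first control hairpin array, calls over all genes also rose, both for the TLX1 hairpin and for the difference. That group then holds 1 array, and its spread is assumed to be that of the other groups. No weight therefore rests on the 26 and the 23. The cause of these shifts was not tested. Against its value with all arrays, no gene turned its direction under an alternative where either value was called. The 2 control hairpin arrays taken singly did disagree: by the probe set representing each gene, 10 genes had another sign against each. Among them HK1, PFKL, PGK1, ENO1, EGLN1, EGLN3, KDM3A and INSIG2 were lower without the first control array and higher without the second. These signs depend on the probe set. Some further probe sets of PGK1, ENO1, EGLN1 and EGLN3 read lower than both control arrays, and some of PGK1 and EGLN1 did not. The replicate block changed no call of the 34 tested genes other than that of PFKM. Of 17 genes with more than 1 kept probe set, the probe sets shared 1 sign in the co-culture change for 12 and in the hairpin change for 16.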

Other observations

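Genes outside the rule for naming, chosen after their values were seen, also had wide gaps between the control hairpin arrays. PPP1R3B, a glycogen-targeting subunit of protein phosphatase, read 5.68 on the first control array and 8.34 on the second, the 5th largest signed gap of 13102 genes. GBE1, the glycogen branching enzyme, read 9.13 and 11.3 and ranked 14th. RORA, a nuclear receptor, read 6.19 and 8.80, BHLHE40, a circadian repressor, 8.20 and 10.3, and KDM4B, a histone demethylase, 7.29 and 9.13. RORA also read 8.75 and 8.67 without co-culture and 7.23 and 7.43 with it, a change of -1.38 that passed in the limma model of the 4 arrays (adjusted p = 0.00327) and not in that of all 8 (0.751).

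PDK1 was too dim to test, and 1 of its dim probe sets read 3.16 and 3.31 without co-culture and 4.33 and 4.36 with it.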
